A study of Mus musculus with 6 samples.

Results

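Sprouty, Spred and dual-specificity phosphatase genes form the negative feedback on the ERK branch of MAP kinase signalling, and Etv4 and Etv5 are transcription factors that the same branch switches on. The genes taken by name from this circuit were 9: Spry2, Spry4, Spred1, Spred2, Dusp4, Dusp5, Dusp6, Etv4 and Etv5. Any probe set annotated with exactly 1 of these symbols was used, which gave 27 probe sets for the 9 genes, of 18193 genes measured this way. The brightest probe set of a gene (highest mean over all arrays) stands for it, and its other probe sets are given beside it. Etv5 fell about 2-fold with the Atoh8 hairpin on its brightest probe set, and it was the only member called (limma adjusted p = 0.0378).

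The cells were mPAC L20, a mouse pancreatic duct line. In the shAtoh8 group (3 arrays) they carried an adenovirus whose short hairpin targets Atoh8, also called Math6, a transcription factor of the basic helix-loop-helix class, and in the shControl group (3 arrays) a scrambled hairpin. Every sample of both groups also received a second adenovirus that expresses Neurog3 from a CMV promoter, so no array shows the line without Neurog3 or without virus. Atoh8 was targeted with 1 hairpin, per the labels. The replicates were separate experiments, per the labels, and each replicate number occurs in both groups.

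As background, a growth factor that binds a receptor tyrosine kinase activates RAS, which passes the signal through RAF and MEK to ERK. ERK then induces genes that dampen the pathway: Sprouty and Spred proteins act at the level of RAS and RAF, and Dusp proteins remove the activating phosphates from ERK. The transcripts of these genes, with those of the ETS factors Etv4 and Etv5, are widely read as an output of ERK activity. In the mouse embryo, fibroblast growth factor signals through this pathway to keep pancreatic progenitors growing.

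Atoh8 itself read 7.83, 7.90 and 7.37 (log2 signal, replicates 1, 2 and 3) in shAtoh8, against 8.75, 8.29 and 7.52 in shControl. It was lower in every pair, but the log2 fold change of -0.49 ± 0.30 (SE) did not pass the test (limma adjusted p = 0.573). Leaving out 1 array moved it between -0.82 (without shControl replicate 3) and -0.21 (without shControl replicate 1), and to -0.32 without shAtoh8 replicate 3. Neurog3 read -0.57 ± 0.48 on its brightest probe set (adjusted p = 0.706, and 0.0330 with the replicate number as a block). It moved to -0.99 without shControl replicate 3, -0.93 without shAtoh8 replicate 1, -0.21 without shAtoh8 replicate 3 and -0.16 without shControl replicate 1. Array medians lay between 5.49 and 5.56. The shAtoh8 replicate 2 array had the widest gap between the 3' and 5' actin control probe sets (0.35, against 0.11 to 0.20 on the other arrays), a measure of RNA integrity. The same array had the lowest mean of the hybridization spike controls (9.89, against 10.24 to 10.48 on the other arrays). Of 10 duct epithelial markers 8 lay above the median of all probe sets (5.52), with Krt8, Krt18 and Krt19 at 13.88, 13.75 and 13.41, while Onecut1 (4.99) and Cftr (3.71) lay below it. Of other markers 3 of 8 acinar, 5 of 8 endocrine, 1 of 8 fibroblast and 2 of 7 immune and endothelial genes lay above that median. Ptprc (3.65), Pecam1 (3.71) and Col3a1 (3.58) were among the dim ones. The brightest were Cela1 (8.63) of the acinar, Iapp (6.87) of the endocrine, Pdgfra (6.89) of the fibroblast and Cd68 (6.63) of the immune and endothelial genes. Of all these markers, duct included, 0 were called by limma without the block (6 at an unadjusted p under 0.05, beside 17.5% of all genes). With the block Epcam, an epithelial marker (-0.73, adjusted p = 0.0463), and Iapp, a beta cell hormone gene (-1.78, 0.0189), were lower. Pcsk1, a prohormone convertase gene (0.76, 0.0193), was higher. Over all genes the block called 2.75% lower and 1.92% higher. The other probe set of Epcam had the opposite sign. The part of these markers in the results was not tested.

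Of the ETS factors, Etv5, a PEA3-family factor, read 7.19, 6.87 and 6.90 in shAtoh8, against 8.20, 7.75 and 8.12 in shControl. Every shAtoh8 array lay below every shControl array, with no overlap, and the lowest shControl value came from replicate 2. The means were 6.99 ± 0.18 in shAtoh8 and 8.02 ± 0.24 in shControl (SD, n = 3 each). The log2 fold change was -1.04 ± 0.15 (SE), 2.05-fold lower, with a 95% interval of -1.38 to -0.69. Within replicate numbers the differences were -1.01, -0.88 and -1.22. In these bulk arrays, fewer cells that express a gene and less RNA per cell cannot be told apart. The exact permutation test, two-sided, gave p = 0.1, the smallest that 3 arrays against 3 allow.

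The call rested on all 6 arrays. With any single array left out, the limma adjusted p of Etv5 lay between 0.0692 (without shAtoh8 replicate 2) and 0.113 (without shControl replicate 3), while the log2 fold change stayed between -1.17 and -0.95. A more negative fold change than that of Etv5 was measured for 110 of the 18193 genes.

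The other 2 probe sets of Etv5 gave values close to the brightest. They are annotated to the same accession, and which part of the transcript each reads was not analysed. They are therefore not counted as separate looks at the transcript. The set of middle brightness read 6.71, 6.32 and 6.42 in shAtoh8, against 7.38, 7.04 and 7.45 in shControl, a log2 fold change of -0.81 ± 0.15 (SE). The dimmest read 6.53, 5.53 and 6.08 in shAtoh8, against 7.20, 6.69 and 7.22 in shControl, a change of -0.99 ± 0.26. Neither overlapped between groups, beside 24% of all genes without overlap on their brightest set. Their limma adjusted p values were 0.0609 and 0.142. With the replicate block all 3 sets passed, at 0.0162 for the brightest, 0.0255 and 0.0240, beside 3.42% of all probe sets (0.802% without the block).

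Etv4, the close relative of Etv5 in the PEA3 family, did not pass. It read 8.74, 8.78 and 8.89 in shAtoh8, against 8.79, 8.76 and 9.13 in shControl. The groups overlapped, with shControl replicate 3 the highest array. The log2 fold change was -0.09 ± 0.12 (SE), with a 95% interval of -0.36 to 0.19 (limma adjusted p = 0.847). Its dimmer probe set had the opposite sign (0.15 ± 0.13, adjusted p = 0.711), and so had the mean of both sets (0.03) and the brightest set without shControl replicate 3 (0.03).

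The difference between these relatives was compared directly. On each array the log2 signal of Etv4 was subtracted from that of Etv5, which gave -1.55, -1.91 and -1.99 in shAtoh8, against -0.59, -1.01 and -1.01 in shControl. This quantity is a difference between probe sets and has meaning only between arrays. It was lower in shAtoh8 by -0.96, -0.90 and -0.98 in the pairs, without overlap of the groups. The difference did not pass: the exact permutation p was 0.1, the smallest possible, and 0.3 after adjustment over the 3 pairs of relatives compared (Etv5 with Etv4, Spry4 with Spry2 and Dusp4 with Dusp6). These permutations do not use the replicate pairs.

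**Figure D1:**
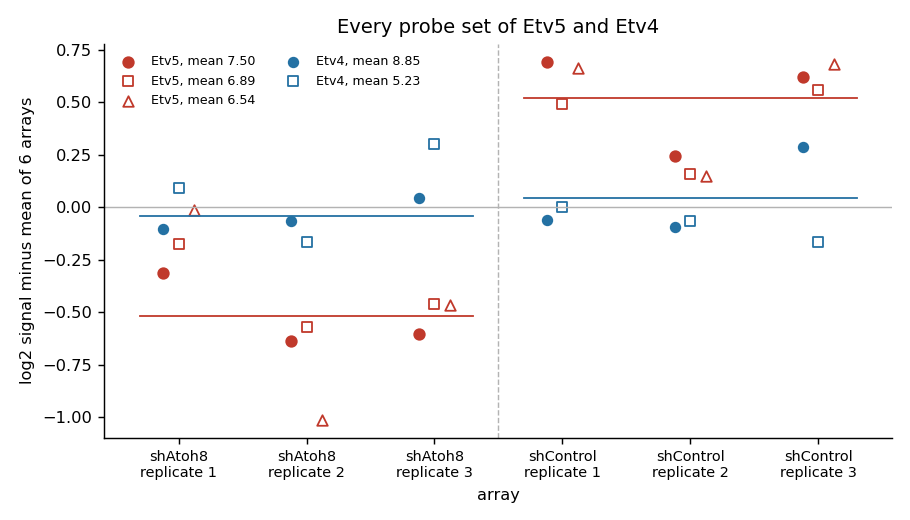
Log2 signal of each probe set of Etv5 (red) and Etv4 (blue) on each array, minus the mean of that probe set over the 6 arrays. Filled circles are the brightest probe sets and horizontal lines their group means; open symbols are the other sets. All 3 sets of Etv5 lie lower in shAtoh8 than in shControl, while those of Etv4 overlap between the groups.

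The 250 bases before the transcript starts of Etv5 are shown because its change is the largest among the members, with Dusp6 beside it as a classical ERK target that did not pass the test. They come from RefSeq (GRCm38.p6), which matched 6 of the 9 members; the table used here has 2 starts for Etv5. Each is written 5′ to 3′ on the strand of the gene. Capitals mark E-boxes, the letters CANNTG that basic helix-loop-helix factors such as Atoh8 and Neurog3 are known to recognise in general. The Etv5 windows are chr16:22438369-22438618 and chr16:22439571-22439820, both on the minus strand, and the Dusp6 window is chr10:99262981-99263230 on the plus strand.
Etv5 start 1: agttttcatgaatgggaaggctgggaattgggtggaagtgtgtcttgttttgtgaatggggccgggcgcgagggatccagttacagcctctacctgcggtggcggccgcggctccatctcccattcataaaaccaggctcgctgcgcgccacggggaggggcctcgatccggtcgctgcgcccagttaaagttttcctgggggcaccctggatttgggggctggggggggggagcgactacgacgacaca
Etv5 start 2: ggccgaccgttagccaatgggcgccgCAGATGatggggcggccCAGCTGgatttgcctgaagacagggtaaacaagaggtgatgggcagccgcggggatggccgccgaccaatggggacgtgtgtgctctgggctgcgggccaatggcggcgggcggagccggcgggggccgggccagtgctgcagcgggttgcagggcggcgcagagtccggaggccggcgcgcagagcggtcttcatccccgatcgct
Dusp6: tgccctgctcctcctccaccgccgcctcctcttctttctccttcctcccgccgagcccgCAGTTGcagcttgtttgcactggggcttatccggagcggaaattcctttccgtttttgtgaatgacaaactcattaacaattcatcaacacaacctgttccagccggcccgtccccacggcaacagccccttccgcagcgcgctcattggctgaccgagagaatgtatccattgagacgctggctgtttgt

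The start 2 window of Etv5 held 2 E-boxes, CAGATG and CAGCTG, whose first bases lie 224 and 207 bases before the start. The start 1 window held 0. The Dusp6 window held 1 E-box, 191 bases before the start, and so did that of Spry2, while those of Spred1, Spred2 and Dusp5 held 0. Searched on both strands, CANNTG occurs in 66.2% of the 32851 promoter windows of this length. The letters CCGGAAG (an ETS site), TGANTCA (AP-1) and TGACGTCA (CRE) were in none of these 7 windows, and occur in 6.91%, 6.75% and 1.55% of all windows. Only E-boxes matched there, so no overlap of different motifs could arise. A match describes the letters and is no evidence of binding.

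Sprouty products hold back receptor signals to RAS and RAF. Spry4 read 7.95, 7.97 and 7.75 in shAtoh8, against 8.30, 8.26 and 8.13 in shControl. The groups did not overlap, and the differences within replicate numbers were -0.35, -0.29 and -0.38. The log2 fold change of -0.34 ± 0.10 (SE), 1.27-fold lower, did not pass the test over all probe sets (limma adjusted p = 0.165, unadjusted p = 0.00857), with the block included (0.0797). All 4 of its probe sets had negative fold changes, from -0.49 to -0.14. The groups did not overlap for 3 of them, beside 24% of all genes on their brightest set. Probe sets of 1 gene are not counted as independent.

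Spry2 read 7.78, 7.72 and 8.24 in shAtoh8, against 7.90, 7.96 and 8.33 in shControl. The replicate 3 array was the highest of each group, and the groups overlapped. The means of the replicate numbers spanned 0.45, which exceeds the log2 fold change of -0.15 ± 0.17 (SE, limma adjusted p = 0.812). Each pair was lower, by -0.12, -0.24 and -0.08. A much dimmer probe set (mean 4.81) was higher in every pair (0.17 ± 0.12, adjusted p = 0.634), so the mean of both sets was 0.01. The difference between Spry4 and Spry2 did not pass (-0.20, with -0.23, -0.05 and -0.30 in the pairs, exact permutation p = 0.5).

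The Spred proteins carry a Sprouty-like domain, and Spred1 is known to bring neurofibromin, an inactivator of RAS, to the membrane. Spred1 read 9.94, 10.05 and 9.92 in shAtoh8, against 9.88, 9.80 and 9.76 in shControl. The groups did not overlap, yet the gap was small: the log2 fold change was 0.16 ± 0.08 (SE), with a 95% interval of -0.03 to 0.35 and a limma adjusted p of 0.472. All 8 probe sets of Spred1 had positive fold changes, from 0.01 to 0.26. The groups did not overlap for 4 of them, beside 24% of all genes on their brightest set. The set with the highest fold change read 7.34, 7.27 and 7.26 in shAtoh8, against 7.04, 6.98 and 7.09 in shControl (adjusted p = 0.189). Several of these sets are annotated to the same accession, so they are not counted as independent.

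Spred2 read 10.61, 10.69 and 10.63 in shAtoh8, against 10.61, 10.59 and 10.46 in shControl. The groups overlapped, since replicate 1 read the same in both, and the log2 fold change was 0.09 ± 0.08 (SE, limma adjusted p = 0.741). Its 5 probe sets differed in sign, with 3 positive and 2 negative. In both negative sets the lowest value was that of shAtoh8 replicate 2, the array with the wide actin gap, and in all 3 positive sets the highest value was that of the same array. The second brightest read 8.02, 6.97 and 8.17 in shAtoh8, against 7.96, 8.22 and 7.92 in shControl, so its pairs differed by 0.06, -1.25 and 0.26. That array also had the lowest spike controls. The part of RNA integrity or of hybridization in these values was not tested. The mean of the 5 sets was -0.02.

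Of the 3 phosphatases among the members, Dusp4 had the most negative fold change. Its product is an inducible nuclear phosphatase for ERK and other MAP kinases. Dusp4 read 10.44, 10.32 and 10.04 in shAtoh8, against 10.66, 10.66 and 10.58 in shControl. The groups did not overlap, and the pairs differed by -0.22, -0.35 and -0.54. The log2 fold change was -0.37 ± 0.11 (SE), 1.29-fold lower, with limma adjusted p values of 0.204 and, with the block, 0.102. The spread was wider in shAtoh8 (SD 0.21) than in shControl (SD 0.05), with n = 3 each.

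Dusp6, the cytoplasmic phosphatase that acts on ERK, read 11.75, 11.35 and 11.84 in shAtoh8, against 11.75, 11.63 and 11.97 in shControl. The groups overlapped, and replicate 2 was the lowest array of each. The log2 fold change was -0.14 ± 0.15 (SE), with a 95% interval of -0.49 to 0.22 (limma adjusted p = 0.797), and it was 0.01 without shAtoh8 replicate 2. Dusp5, a nuclear phosphatase for ERK, read 9.04, 8.89 and 8.57 in shAtoh8, against 8.97, 9.01 and 8.69 in shControl. Replicate 3 was the lowest array of both groups, and the pairs differed by 0.07, -0.12 and -0.12. Its log2 fold change was -0.05 ± 0.15, with a 95% interval of -0.39 to 0.29 (adjusted p = 0.932). It turned positive without shControl replicate 2 (0.01) and without shAtoh8 replicate 3 (0.08). The difference between Dusp4 and Dusp6 did not pass (-0.23, with -0.22, -0.07 and -0.40 in the pairs, exact permutation p = 0.6).

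**Figure D2:**
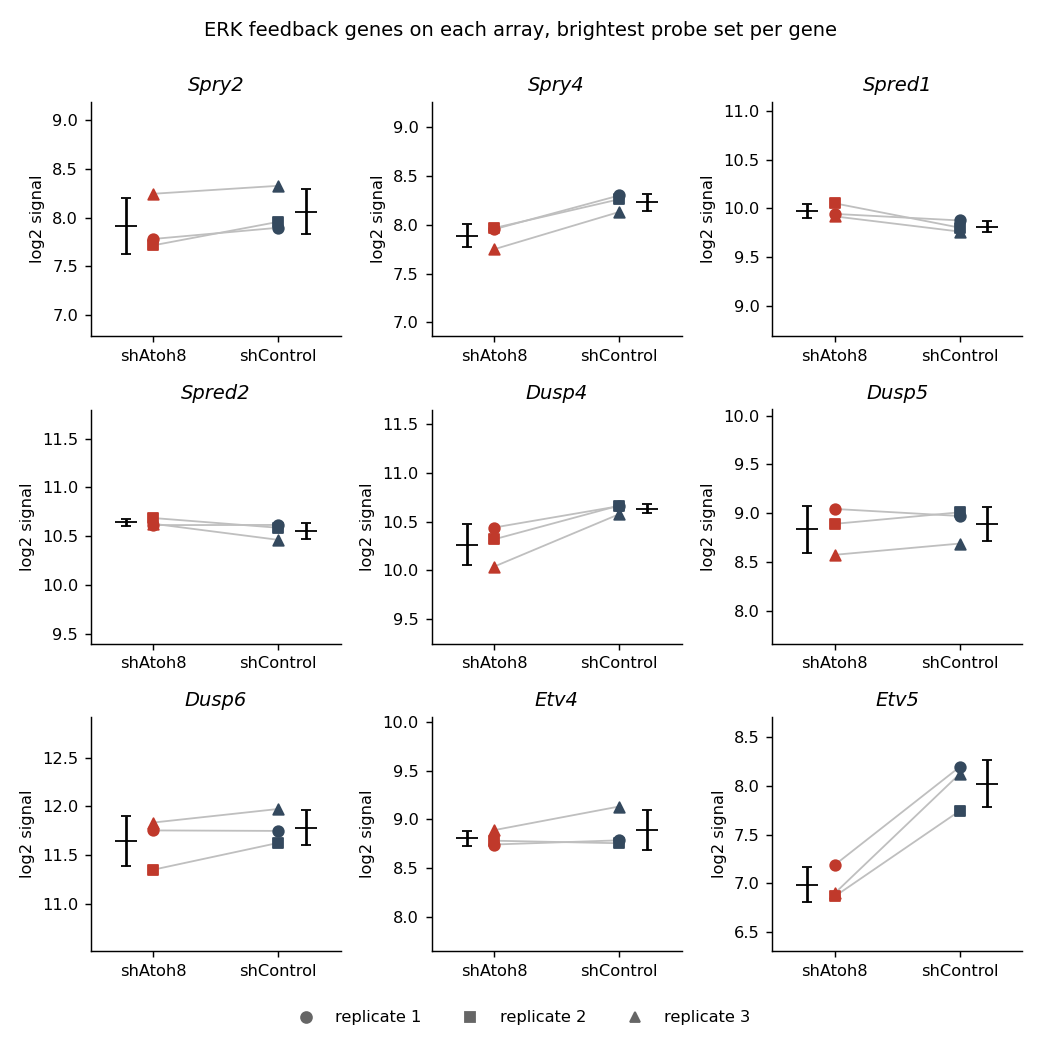
Log2 signal of the brightest probe set of each of the 9 genes in shAtoh8 (red, left) and shControl (dark, right); every panel spans the same log2 range. Lines join arrays of the same replicate number, and black bars give the group mean ± SD (n = 3 each). Etv5 shows the widest gap, and Etv5, Spry4, Dusp4 and Spred1 do not overlap between groups.

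Of the 9 genes 1 passed (Etv5, lower), where 1.15% of all genes were called, 0.517% higher and 0.638% lower. An unadjusted p under 0.05 was reached by 3 members, all lower (Etv5, Spry4 and Dusp4), where 17.5% of all genes did so, 8.72% higher and 8.82% lower. With the replicate block the count stayed at 1, beside 4.67% of all genes. Of the fold changes 7 were negative and 2 positive, with a median of -0.14, beside a median of 0.01 over all genes. Leaving out 1 array moved the members' median between -0.23 (without shAtoh8 replicate 3) and -0.041 (without shControl replicate 3), and it was -0.075 without shAtoh8 replicate 2. The groups did not overlap for 4 members, beside 24% of all genes. Etv5, Spry4 and Dusp4 were lower (beside 11.4% of all genes) and Spred1 was higher (beside 12.6%). The same sign in all 3 pairs was seen for 5 members, the 4 just named and Spry2, beside 45.5% of all genes; 4 of these were lower, beside 21.5%. The mean of the 9 genes was 9.27, 9.18 and 9.20 in shAtoh8, against 9.45, 9.38 and 9.46 in shControl.

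**Figure D3:**
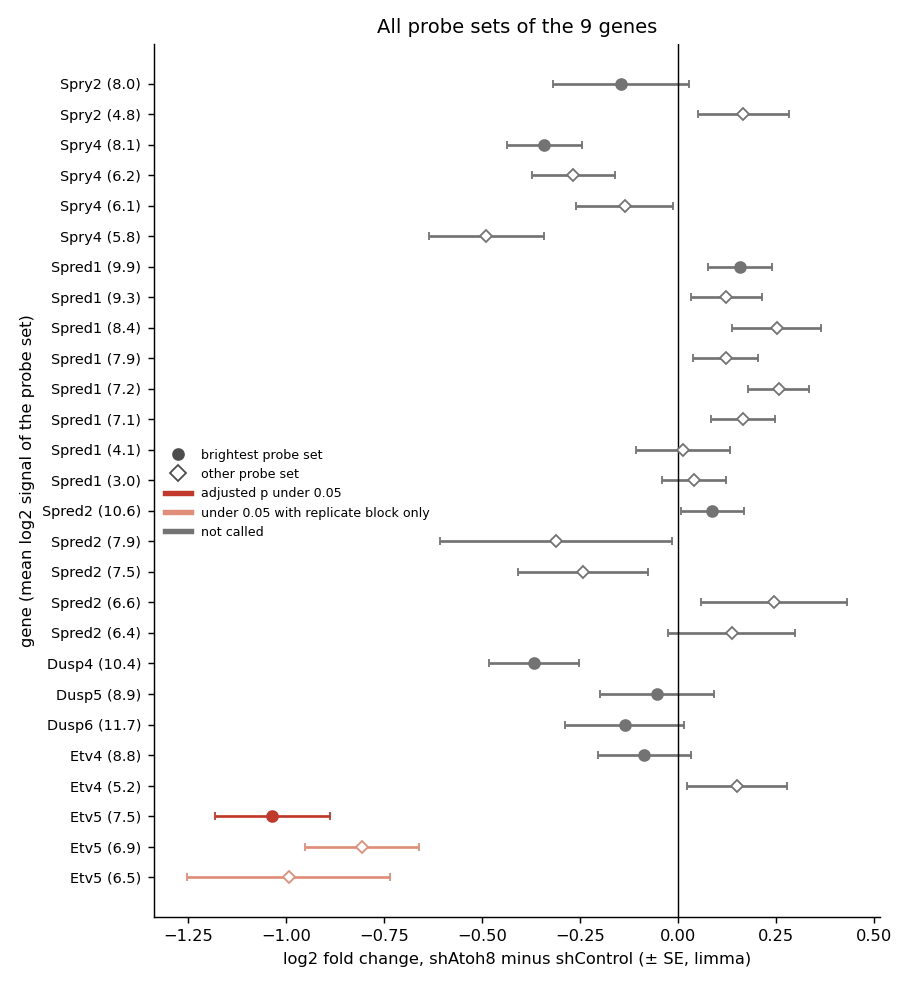
Log2 fold change (shAtoh8 minus shControl, ± SE from limma) of all 27 probe sets of the 9 genes, each labelled with its mean log2 signal. Filled circles are the brightest sets. The 3 sets of Etv5 lie between -1.04 and -0.81, those of Spry4 lie below 0 and those of Spred1 above it, while Spry2, Spred2 and Etv4 have sets on both sides.

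Proliferation markers were read on the same arrays. All 9 measured had negative fold changes, with a median of -1.10, and 0 were called by limma. An unadjusted p under 0.05 was reached by 7, beside 17.5% of all genes. With the block 5 were called lower, beside 2.75% of all genes. Their mean was 9.10, 9.21 and 8.27 in shAtoh8, against 10.02, 9.78 and 9.69 in shControl. Their mean differed most in the replicate 3 pair, though Mcm2 was most negative in the replicate 1 pair. Among the members with negative fold changes, Etv5, Dusp4, Spry4 and Etv4 were most negative in the replicate 3 pair, while Spry2, Dusp6 and, by a narrow margin, Dusp5 were most negative in the replicate 2 pair. The part of proliferation in these values was not tested.

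The rest of the pathway was read from 6 lists by role. Of 101 listed genes 91 were measured and 10 were not analysed here. Of these 1 rose and 1 fell over all probe sets, beside 1.15% of all genes called. The median fold change was -0.12, and 63 of 91 were negative, beside 46.9% of all genes. With the replicate block 1 rose and 9 fell, beside 1.92% and 2.75% of all genes.

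Among 17 other feedback genes, Spred3, the third Spred gene, rose. It read 8.11, 8.20 and 8.46 in shAtoh8, against 7.48, 7.64 and 7.47 in shControl, a log2 fold change of 0.73 ± 0.11 (SE, limma adjusted p = 0.0467). Its groups did not overlap, but the call was lost when any single array was left out (adjusted p from 0.0745 without shAtoh8 replicate 2 to 0.152 without shControl replicate 2). Dusp14, an atypical dual-specificity phosphatase, read 6.28, 6.16 and 6.22 in shAtoh8, against 7.02, 6.83 and 7.42 in shControl. Its change of -0.87 ± 0.15 narrowly missed the threshold (0.0544) and passed with the block (0.0300). Spry1, another Sprouty gene, named after its values were seen, read 9.64, 9.43 and 10.12 in shAtoh8, against 9.88, 9.79 and 10.45 in shControl. It was lower in each pair, by -0.24, -0.36 and -0.33, but differed more between replicate numbers than between groups (-0.31 ± 0.23, adjusted p = 0.651, and 0.103 with the block). Spry3, also named after its values were seen, was dim (mean 4.01) and read 0.0041 ± 0.18 (adjusted p = 0.996).

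Upstream, of 14 receptor tyrosine kinases 1 fell, Erbb3, a receptor for neuregulins. Erbb3 averaged 6.26 ± 0.17 in shAtoh8 and 7.11 ± 0.15 in shControl (SD, n = 3 each), and its log2 fold change was -0.85 ± 0.12 (SE, limma adjusted p = 0.0378); its dim second probe set read -0.08 ± 0.09, and the mean of both sets was -0.47. The call was lost when any array but shAtoh8 replicate 2 was left out, with adjusted p values of 0.102 to 0.135. Met, the receptor for hepatocyte growth factor, read 10.04, 10.25 and 9.84 in shAtoh8, against 10.54, 10.65 and 10.52 in shControl. Its change of -0.53 ± 0.12 did not pass in the main fit (limma adjusted p = 0.0981) and passed with the block (0.0416). The lowest limma adjusted p of Met over the alternative settings was 0.0299. Of the 14 receptors 12 had negative fold changes, with a median of -0.19. Egfr, the receptor for epidermal growth factor, named after its values were seen, had a positive fold change of 0.46 ± 0.10 that did not pass with or without the block (adjusted p = 0.0889 with it), without overlap of the groups.

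Of 18 ligands 0 passed limma (3 at an unadjusted p under 0.05), with a median fold change of -0.03. Pdgfb, a platelet-derived growth factor chain, fell with the block (-0.88 ± 0.22 SE, adjusted p = 0.126 without it and 0.0280 with it). Of 13 adaptors and RAS proteins 0 passed (4 at an unadjusted p under 0.05). Rasa1, a RAS GTPase-activating protein, read 0.23 ± 0.07 (adjusted p = 0.212), and the neurofibromin gene Nf1 read -0.26 ± 0.09 (0.244). Of 9 RAF, MEK and ERK kinases and scaffolds 0 passed (2 at an unadjusted p under 0.05). Ksr1, a scaffold of RAF and MEK, read -0.38 ± 0.08 (0.0964), and Mknk2, a kinase that ERK activates, read 0.25 ± 0.09 (0.277). In these 3 lists the block called Pdgfb and no other gene. Over all genes 17.5% had an unadjusted p under 0.05, and 2.75% were called lower with the block.

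Of 20 other ERK output genes 17 had negative fold changes, with a median of -0.28. By limma 0 passed, and 9 had an unadjusted p under 0.05, beside 17.5% of all genes. With the replicate block 5 fell, beside 2.75% of all genes. Fos, an immediate early gene, read 8.48, 8.47 and 7.98 in shAtoh8, against 9.20, 9.37 and 8.97 in shControl. Its log2 fold change was -0.87 ± 0.17 (SE, limma adjusted p = 0.0711, and 0.0189 with the block). Ier3 (-0.69 ± 0.14), Vegfa (-0.77 ± 0.16) and Myc (-1.01 ± 0.30) also fell with the block, with adjusted p values of 0.0309, 0.0293 and 0.0384, and Fosl1 was the fifth. Egr1, named after its values were seen, had the most negative fold change of this list (-1.44 ± 0.31) and did not pass (0.0879, and 0.0731 with the block). Its pairs differed by -0.76, -1.04 and -2.53.

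**Figure D4:**
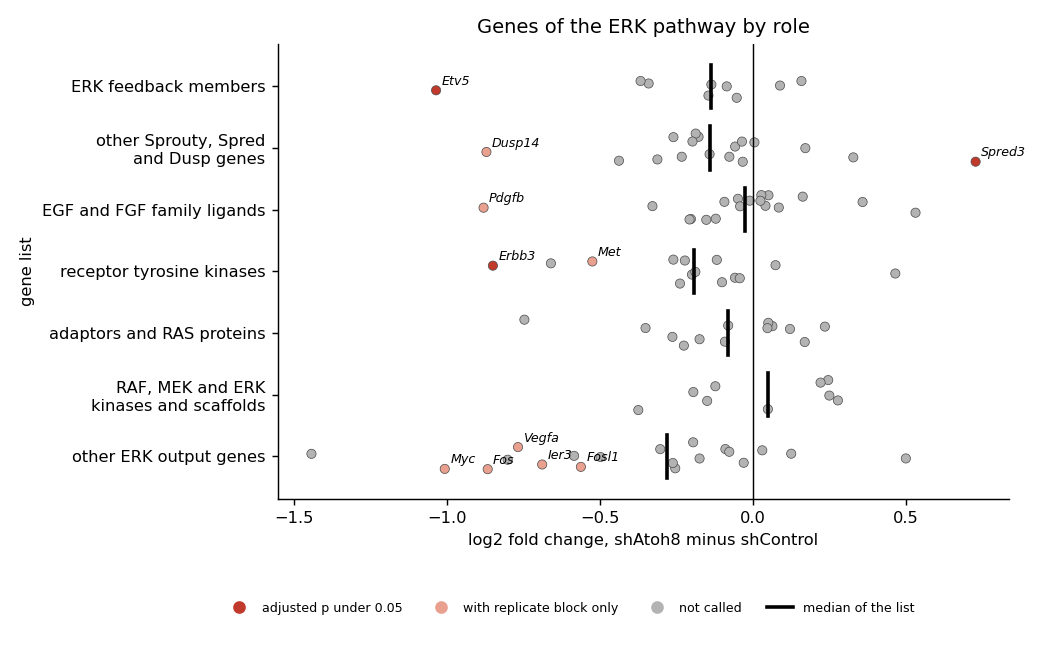
Log2 fold change (shAtoh8 minus shControl) of each measured gene of the ERK pathway, 1 point per gene on its brightest probe set, grouped by role; black bars are list medians. Dark red points passed limma over all probe sets, light red points passed only with the replicate block, and grey points did not pass. Etv5, Erbb3 and Spred3 are the called genes.

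Genes with the profile most like a member were found by the root-mean-square difference of centred log2 signals over the 6 arrays, for the 3 members that varied most. For Etv5 (SD over arrays 0.60) they were Senp2, a SUMO protease (difference 0.11), Haus4, an augmin subunit (0.13), and Tapbp, the MHC class I chaperone tapasin (0.13). These 3 read -0.84, -0.87 and -1.01 in log2 fold change. The choice used the same 6 arrays, so fold changes near that of Etv5 follow from it. For Spry2 they were Anxa6, St3gal2 and Selenok (0.02 to 0.04), which share its high replicate 3 arrays, and for Dusp4 they were Stau2, Trmt112 and Ss18 (0.03 to 0.04). Among the members themselves, Dusp4 and Spry4 were nearest to each other (0.06), as were Spred1 and Spred2 (0.05), while the nearest member to Etv5 was Dusp4 at 0.38.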

How the data were processed

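Total RNA was labelled with biotin and measured on Affymetrix arrays. The authors deposited log2 signals per probe set, made with RMA in the affy package per the submitters' processing notes (versions not given in the sources used here). RMA equalises the distributions of the arrays, so a shift of most genes would not show. The protocol in the labels gives 250000 cells a well, 40 infectious units of each virus per cell, and RNA after a further 44 to 46 h of culture.

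Of 45101 probe sets 64 array controls were left out and 45037 tested, with no filter. Names came from the platform annotation: 34945 probe sets had 1 symbol, 932 several and 9160 none. RefSeq symbols (GRCm38.p6), matched by Entrez ID, changed 0 of them.

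limma 3.58.1 (R 4.3.3) compared shAtoh8 with shControl through lmFit and eBayes (4 residual and 3.30 prior degrees of freedom), two-sided, with Benjamini-Hochberg adjustment over the 45037 probe sets and a threshold of 0.05. It was also run on simulated data with independent noise and no replicate effect, so that run does not cover arrays that pair by replicate number. Intervals are 95% and unadjusted. The number of arrays limits the precision.

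Whether equal replicate numbers pair the arrays was checked: array deviations from group means correlated at 0.407, 0.187 and 0.433 for equal numbers and at -0.351 to 0.0292 for unequal ones. Deviations within a group cancel out, so higher correlations at equal numbers bring lower ones at unequal numbers. The main fit, its intervals and the permutation tests do not use the numbers as pairs. Differences within replicate numbers are given for several genes, and a blocked fit is given beside the main fit where it changes a call.

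The members, the lists and the alternatives were chosen with earlier results of these data known. Genes named outside the members were those called with or without the block, up to 4 per list by smallest p, or the 2 with the smallest p, those nearest in profile, Atoh8 and Neurog3; exceptions are marked.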

Additional observations from a re-analysis of the deposited data

How the results depend on the processing

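The 10 alternatives that kept all arrays, among them the replicate block, kept 1 member called, and Etv5 stayed called in each (adjusted p from 0.0162 to 0.0432). Leaving out any single array left 0 members called by limma, with Etv5 between -1.17 and -0.95. Each time 3 members had an unadjusted p under 0.05, beside 2585 to 2995 of the 18193 genes. Counts over all features moved more. Against 361 probe sets called, the block gave 1541, array weights 579, the brighter probe sets alone (mean above the median of all) 543, sets without _x, _s or _a suffixes 213 and an adjusted p under 0.1 gave 1231, and leaving out 1 array gave 0 to 191. Against 210 genes called, the block gave 849, array weights 339, the brighter sets 324, the mean of a gene's sets 459 and an adjusted p under 0.1 gave 691. Leaving out 1 array gave 0 to 117 genes: 1, 117 and 41 without shAtoh8 replicates 1, 2 and 3, and 3, 0 and 21 without shControl replicates 1, 2 and 3. At 0, 2641 genes had an unadjusted p under 0.05. Against 2 pathway genes called, the block gave 10, array weights 4, the mean of a gene's sets 6 and an adjusted p under 0.1 gave 9, with 0 to 1 when an array was left out. Signs turned for Spry2 (0.010), Spred2 (-0.017) and Etv4 (0.032) with the mean of a gene's sets, for Etv4 without shControl replicate 3 (0.034, the other arrays left out giving down to -0.15), for Dusp5 without shControl replicate 2 (0.0061) and without shAtoh8 replicate 3 (0.078, down to -0.16), and for Dusp6 without shAtoh8 replicate 2 (0.011, down to -0.23). They also turned for Anxa6 and Selenok without shControl replicate 3 (0.019 each, down to -0.29 and -0.31), and for Trmt112 without suffixed sets (0.014). The causes were not tested. Spry4 and Dusp4 were called under none of the alternatives (adjusted p from 0.0797 to 0.366 and from 0.102 to 0.416).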

Other observations

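The genes beside Etv5 on chromosome 16 were read in the order of RefSeq protein-coding genes, 7 on each side. Of these 14 neighbours 11 were measured, 1 was called (beside 1.15% of all genes), and the median log2 fold change was -0.0033. The called neighbour was Senp2, 3 genes away, a protease that removes SUMO from proteins, at -0.84 ± 0.13 (SE, limma adjusted p = 0.0414). Senp2 is also the gene whose profile over the 6 arrays was nearest to that of Etv5. Tra2b, a splicing factor gene next to Etv5, read -0.02, and Tmem41a read 0.52 (adjusted p = 0.129). The neighbours were chosen after the values of Etv5 and Senp2 were seen.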
